A study of Mus musculus with 21 samples.

Results

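The 39 genes described here surround Esrp2 and its antisense RNA Esrp2-as on mouse chromosome 8, from the end of Atp6v0d1 at 105524465 to the end of Nfat5 at 107379517 on GRCm38. They were taken from the gene count table by symbol through their Ensembl identifiers, and all 39 were found among 48440 genes. Esrp2-as (ENSMUSG00000086390, annotated as 1810019D21Rik) occupies chr8:106135400-106138525 on the plus strand, and Esrp2 (ENSMUSG00000084128) occupies chr8:106130319-106136974 on the minus strand. The gene bodies overlap by 1575 bp. Of the neighbours, 23 lie before Esrp2-as in chromosome order and 16 after it, the farthest being Nfat5 with a gap of 1154.9 kb.

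RNA was measured in 3 mouse cell lines as total RNA after ribosomal depletion. M6 and M27H4 are mammary tumour lines from C3(1)SV40 TAg mice, in which the C3(1) promoter drives the SV40 T antigen. 3T3-L1 cells are murine preadipocytes. In M6, Esrp2-as was knocked down with an LNA antisense gapmer (2 replicates against 2), although the labels name the controls an empty vector; in M27H4 (3 against 3) and 3T3-L1 (2 against 2) Esrp2-as was overexpressed against an empty vector. The 21 deposited columns stand for 14 replicates of 34892461 to 328493417 counts, each treatment was applied to 1 line per cell background, and p-values measure the spread between cultures that the labels call biological replicates.

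Antisense RNAs are transcribed from the strand opposite to a coding gene, and some of them act on the gene they overlap or on genes nearby, whereas others act away from their own locus. Esrp2 encodes an RNA-binding protein that directs epithelial patterns of splicing. The stretch around it is rich in broadly expressed genes, among them the chromatin insulator gene Ctcf, telomere genes, amino acid and ion transporters, and enzymes of lipid and RNA metabolism. The comparison of each treatment with its control along this stretch asks whether the neighbours moved with Esrp2-as, and whether nearer genes moved more.

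RefSeq promoter windows on GRCm38.p6, from 250 bases before to 50 bases after a start, were matched for 31 of the 39 neighbours within 500 bp of the GENCODE start. The window of Esrp2-as is shown because it starts inside the Esrp2 gene, chr8:106135150-106135449 on the plus strand, with each E-box CACCTG or its reverse complement CAGGTG in capitals. The E-box is a motif that zinc finger repressors of epithelial genes are known to bind.
Esrp2-as: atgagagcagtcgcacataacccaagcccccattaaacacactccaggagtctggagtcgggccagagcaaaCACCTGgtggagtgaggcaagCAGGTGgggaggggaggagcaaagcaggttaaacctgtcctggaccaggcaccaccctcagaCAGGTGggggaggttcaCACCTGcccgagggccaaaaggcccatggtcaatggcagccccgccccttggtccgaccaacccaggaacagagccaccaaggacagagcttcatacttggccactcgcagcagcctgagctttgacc
This window held 4 E-boxes, a count reached by 0.0548% of all 32851 promoter windows, while 20.2% of windows held at least 1. Among the neighbours, 6 of 31 windows held an E-box. A match describes the letters and not binding.

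The next windows show the range of CpG content among the genes whose values stand out later, with CG in capitals: Pla2g15, the nearest neighbour after Esrp2-as (chr8:106150104-106150403, plus strand), Slc12a4 (chr8:105966066-105966365, minus strand), Prmt7 (chr8:106210804-106211103, plus strand), Psmb10 (chr8:105938343-105938642, minus strand) and Ctrl (chr8:105933813-105934112, minus strand).
Pla2g15: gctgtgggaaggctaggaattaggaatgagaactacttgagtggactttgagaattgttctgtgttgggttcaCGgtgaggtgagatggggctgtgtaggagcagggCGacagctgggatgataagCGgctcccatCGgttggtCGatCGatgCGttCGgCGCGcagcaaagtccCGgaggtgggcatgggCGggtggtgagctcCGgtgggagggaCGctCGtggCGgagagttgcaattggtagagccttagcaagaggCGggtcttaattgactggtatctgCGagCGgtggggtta
Slc12a4: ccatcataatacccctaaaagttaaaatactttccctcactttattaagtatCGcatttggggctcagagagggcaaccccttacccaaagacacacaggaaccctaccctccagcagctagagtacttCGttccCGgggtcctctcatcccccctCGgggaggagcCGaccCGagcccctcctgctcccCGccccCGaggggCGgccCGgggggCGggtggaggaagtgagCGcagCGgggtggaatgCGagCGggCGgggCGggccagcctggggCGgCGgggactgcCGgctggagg
Prmt7: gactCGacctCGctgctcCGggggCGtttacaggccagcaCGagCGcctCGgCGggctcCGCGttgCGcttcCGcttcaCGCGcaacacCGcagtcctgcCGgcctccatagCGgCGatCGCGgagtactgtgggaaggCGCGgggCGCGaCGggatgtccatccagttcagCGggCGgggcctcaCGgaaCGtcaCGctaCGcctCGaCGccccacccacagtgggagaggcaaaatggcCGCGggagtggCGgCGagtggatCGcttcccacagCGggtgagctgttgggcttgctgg
Psmb10: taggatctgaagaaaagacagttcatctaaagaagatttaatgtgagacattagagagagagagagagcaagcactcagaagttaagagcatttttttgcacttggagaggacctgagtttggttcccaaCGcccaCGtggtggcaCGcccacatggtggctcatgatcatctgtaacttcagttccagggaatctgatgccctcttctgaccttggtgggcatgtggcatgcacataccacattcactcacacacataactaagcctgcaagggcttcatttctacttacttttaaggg
Ctrl: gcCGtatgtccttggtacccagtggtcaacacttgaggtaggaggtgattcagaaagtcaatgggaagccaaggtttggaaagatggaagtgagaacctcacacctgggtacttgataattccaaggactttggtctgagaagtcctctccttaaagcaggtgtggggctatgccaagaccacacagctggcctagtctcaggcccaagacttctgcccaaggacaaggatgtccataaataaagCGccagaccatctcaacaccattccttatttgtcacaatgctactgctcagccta
Prmt7 had 39 CpG in this window, Slc12a4 20, Pla2g15 19, Psmb10 3 and Ctrl 2. The median over 27 neighbours of at least 1 CPM (counts scaled by the effective library size, meaned over all replicates) was 22, against 7 over all windows and 7.5 over 4 low neighbours. CpG count and mean level had a Spearman rho of 0.548 across the 31 genes, which share libraries and base composition and are not replicates. Psmb10 stands against that order, with few CpG and a high level in 3T3-L1. Prmt7 and Slc7a6os, which run in opposite directions, start at adjacent bases, 106210936 and 106210935.

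Of the 39 neighbours, 37 had enough counts to be tested and 32 averaged at least 1 CPM. Dpep3 and Tmed6, a dipeptidase and a secretory pathway cargo receptor, were not tested. Dpep3 had 3 counts in all and was at 0 in 13 of 14 replicates, which allows up to 0.086 CPM in the shallowest replicate. Agrp, Tsnaxip1, Dpep2, Ctrl and Smpd3 were tested but low. On the scale of CPM per kb of exon, Cyb5b, an outer mitochondrial membrane cytochrome, ranked first in M6 controls at 95.1 and in M27H4 controls at 79.7, and Psmb10, a catalytic subunit of the immunoproteasome, ranked first in 3T3-L1, at 110.8 with overexpression. Exons of 17 neighbours overlap a gene on the opposite strand; the counting strand is not given in the sources used here, so reads of such pairs, Esrp2 and Esrp2-as among them, may be split.

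The targeted RNA was checked first. In M6, Esrp2-as stood at 2.96 and 2.42 CPM in the controls and at 0.527 and 0.851 in the knockdown. The replicates did not overlap, and the log2 change was -1.92 ± 0.55 (SE), with an adjusted p of 0.363 in edgeR and 0.0314 in DESeq2. In M27H4, Esrp2-as rose from 0.731, 1.25 and 0.889 to 61.2, 65.9 and 15.9 CPM (log2 5.62 ± 0.50, edgeR adjusted p 0.00152), and overexpression replicate 3 was the lowest of the treated group. In 3T3-L1 it rose from 0.25 and 0.355 to 45.8 and 35.5 CPM (log2 7.08 ± 0.67, edgeR adjusted p 0.00258). With same-numbered replicates as a block, the adjusted p of Esrp2-as was 0.0794 in M27H4 and 0.0824 in 3T3-L1, and limma voom gave 0.0697 and 0.0822. Its M27H4 call was also lost when only the M27H4 groups were fitted (adjusted p 0.821), and its 3T3-L1 call without 3T3-L1 control replicate 1 (0.116) or 2 (0.223).

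Esrp2 itself passed the test in no treatment. It stood at 65.9 and 58.8 CPM in M6 controls and at 53.9 and 55.6 in the knockdown. In M27H4 it stood at 11.3, 15 and 13.7 in controls and at 9.31, 12.7 and 15.9 with overexpression. In 3T3-L1 all 4 values lay between 0.291 and 0.356 CPM, from 29 to 56 counts a column. Its change in 3T3-L1 therefore describes a gene that was hardly detected there. The log2 changes were -0.19 ± 0.23, -0.07 ± 0.19 and 0.15 ± 0.27, each with an edgeR adjusted p of 1.

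Markers set the lines apart. Over 8 epithelial markers the summed level was 3399 to 4635 CPM in M6, 147 to 281 in M27H4 and 17.4 to 24.2 in 3T3-L1. Over 8 preadipocyte and fibroblast markers the sum was 28.2 to 60.5, 787 to 1075 and 5830 to 7418 in the same order. Pdgfra made up most of the M27H4 sum, with an average of 866 CPM in M27H4 controls and 275 in 3T3-L1 controls. The next highest of these markers in M27H4 controls was Pdgfrb at 50.3, and Dlk1 averaged 0.617 and Twist1 0.191 there. In M27H4, 6 of the 8 epithelial markers averaged at least 1 CPM, and in 3T3-L1 6 of the 8 did too, so this count does not set these 2 lines apart. Cdh1 stood at 113 to 169 CPM in the M27H4 controls. Epcam stood at 0.0488 CPM in M27H4 control replicate 1, whose run code no M6 or 3T3-L1 column shares, and at up to 8.14 in the other M27H4 controls. Of 5 endothelial markers, Kdr, a VEGF receptor, stood at 22.0 to 32.1 CPM in M27H4 controls and made up nearly the whole sum there, which reached 32.2 CPM, against a mean of 0.0179 in M6 controls and 0.104 in 3T3-L1 controls; Cdh5 and Emcn were at or near 0 in every group. Of the macrophage markers, Csf1r averaged 9.32 CPM in M6 controls, 0.302 in M27H4 controls and 1.24 in 3T3-L1 controls, and Cd68 averaged 1.44, 1.76 and 1.22. Lyz2, another macrophage marker, did not follow Csf1r, with averages of 0, 0.0887 and 1.66 CPM in the same groups. Their part in the line differences below was not tested.

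After knockdown in M6, 0 of 37 neighbours passed an adjusted p of 0.05 in edgeR, against 0.137% of all 21237 genes tested. DESeq2 and limma voom also called 0. At an unadjusted p under 0.05, edgeR gave 1 of 37 neighbours, against 6.27% of all genes, and that gene was Slc12a4; DESeq2 gave 4 and limma voom 1. Of the log2 changes, 20 were above 0 and 17 below, with a median of 0.02 against -0.03 over all genes, and a median size of 0.14 against 0.25. Leaving out a replicate moved the number above 0 to between 11, without M6 knockdown replicate 2, and 26, without M6 knockdown replicate 1. The replicates did not overlap for 7 of 37 neighbours, against 26.4% of all genes.

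Slc12a4, the potassium chloride cotransporter KCC1, lies 169.3 kb before Esrp2-as. It stood at 21.8 and 15.9 CPM in M6 controls and at 30.4 and 33.6 in the knockdown. Both knockdown replicates were above both controls. The log2 change was 0.76 ± 0.24 (unadjusted p 0.0067, edgeR adjusted p 0.441). Over 12 alternatives the change ran from 0.56 to 1.07 and passed only with technical replicates taken as separate libraries (0.89, adjusted p 0.00206). Columns carry run codes, lettered here A to E in numeric order. In run A, which holds columns of all 4 M6 replicates, Slc12a4 was at 23.6 and 16.6 CPM of the column total in controls and at 32.6 and 30.4 in the knockdown. Its exons overlap the antisense gene Gm16156.

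The other neighbours with the smallest p were Acd and Dus2. Acd encodes TPP1, a shelterin subunit at telomeres; it stood at 15.3 and 18 CPM in controls and at 11 and 13.7 in the knockdown, a log2 change of -0.43 ± 0.20 (edgeR adjusted p 0.82). Dus2 encodes a dihydrouridine synthase that modifies transfer RNA; it stood at 6.54 and 8.09 CPM in controls and at 9.05 and 10.6 in the knockdown, a log2 change of 0.42 ± 0.21 (edgeR adjusted p 0.871). Neither gene's replicates overlapped. For 29 of the 32 neighbours of at least 1 CPM, the 95% interval of the change lay within 1 log2 unit of 0; the exceptions were Slc12a4, Nfat5 and Lcat.

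**Figure D1:**
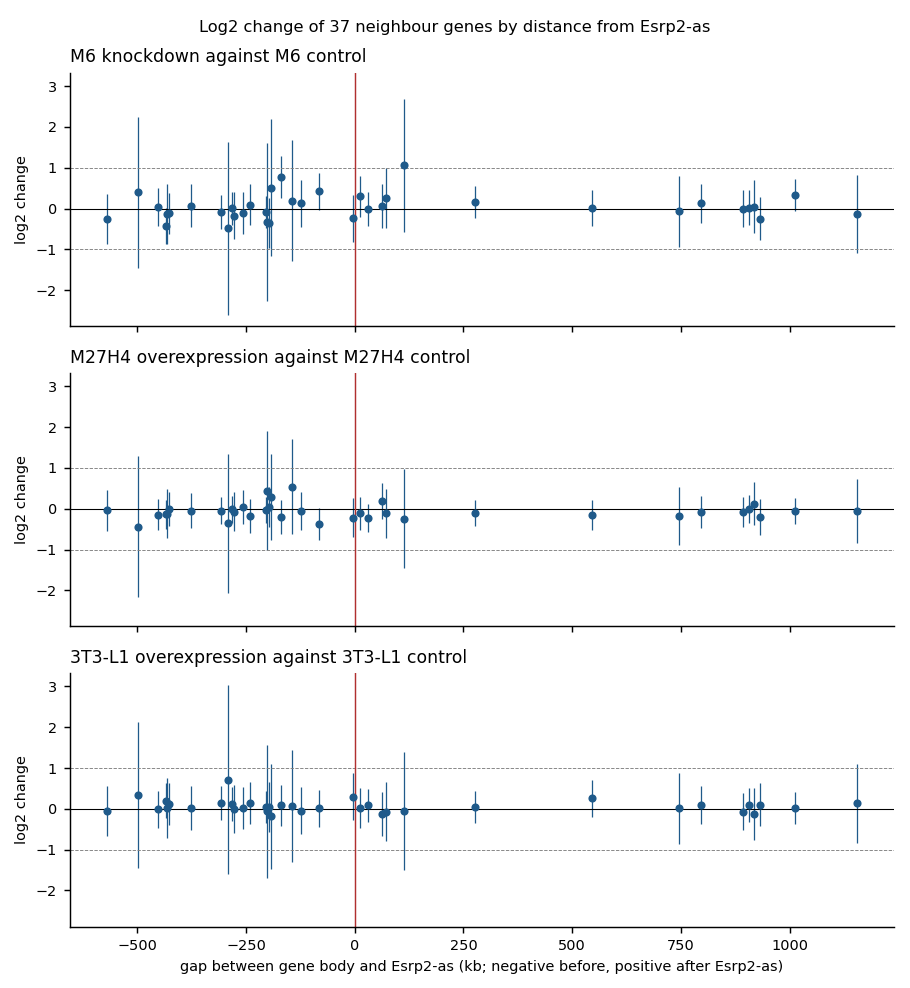
Log2 change (vertical axis, with 95% interval) of the 37 tested neighbours against the gap in kb between gene body and Esrp2-as (horizontal axis), in 3 panels, 1 for each treatment against its control; dashed lines mark a change of 1. No neighbour passed the test in any panel.

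Overexpression in M27H4 called 0 of 37 neighbours in edgeR, against 0.00942% of all genes, and 0 at an unadjusted p under 0.05, against 1.69%. DESeq2 and limma voom also called 0, with 1 and 0 at an unadjusted p under 0.05. Of the log2 changes 7 were above 0 and 30 below, with a median of -0.08 against -0.03 over all genes. With a replicate left out, 6 to 15 were above 0. Replicates did not overlap for 3 of 37 neighbours, against 5.1% of all genes.

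The smallest p in M27H4 belonged to Dus2, at 3.49, 3.53 and 3.51 CPM in controls and at 2.31, 2.94 and 2.82 with overexpression. All 3 overexpression values were below all 3 controls. The log2 change was -0.38 ± 0.18 (unadjusted p 0.0532, edgeR adjusted p 1), opposite in sign to the M6 knockdown value. Slc7a6, a cationic and neutral amino acid transporter subunit, stood at 160, 174 and 161 CPM in controls and at 126, 137 and 158 with overexpression. These groups did not overlap either, and the log2 change was -0.23 ± 0.16 (edgeR adjusted p 1). Slc12a4 stood at 172, 193 and 191 CPM and at 115, 175 and 196, with overlapping replicates and a log2 change of -0.20 ± 0.19 (edgeR adjusted p 1). Intervals lay within 1 log2 unit of 0 for 31 of 32 neighbours, all but Lcat.

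Overexpression in 3T3-L1 called 0 of 37 neighbours in edgeR, against 0.00471% of all genes, and 0 at an unadjusted p under 0.05, against 0.946%. DESeq2 and limma voom also called 0. Log2 changes were above 0 for 27 and below for 10, with a median of 0.03 against 0.00 over all genes. With a replicate left out, 20 to 24 were above 0. Replicates did not overlap for 4 of 37 neighbours, against 23.2% of all genes.

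The smallest p in 3T3-L1 belonged to Tango6, a gene of Golgi organisation, at 24.1 and 19.8 CPM in controls and at 24.1 and 28.3 with overexpression (log2 0.26 ± 0.21, edgeR adjusted p 1). Nfatc3, a calcium-regulated transcription factor, stood at 59.5 and 41.4 CPM in controls and at 57.6 and 66.3 with overexpression (log2 0.30 ± 0.27, edgeR adjusted p 1). Both genes overlapped between groups. Acd stood at 17.8 and 19.5 CPM in controls and at 19.5 and 23.4 with overexpression, which did not overlap when unrounded (log2 0.20 ± 0.20, edgeR adjusted p 1). Intervals lay within 1 log2 unit of 0 for 30 of 32 neighbours, all but Nfat5 and Lcat. The difference between the effects in 3T3-L1 and M27H4 passed the test for 0 of 37 neighbours in edgeR, against 0.00471% of all genes, and 0 were under an unadjusted p of 0.05, against 1.51%; DESeq2 and limma voom also called 0.

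The 9 neighbours with a gap under 150 kb are the closest test of a local change. Nfatc3 ends 4863 bp before Esrp2-as, and its last bases overlap Esrp2 by 219 bp on the opposite strand. In M6 it stood at 71.7 and 46.9 CPM in controls and at 55.3 and 45.7 in the knockdown, with overlapping replicates. In M27H4 it stood at 84.3, 64.9 and 61.6 and at 65.9, 47.7 and 67.8, again overlapping. The log2 changes were -0.23 ± 0.27 and -0.22 ± 0.22.

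Pla2g15, a lysosomal phospholipase, begins 11.9 kb after Esrp2-as. In M6 it stood at 15.3 and 17.3 CPM in controls and at 17.6 and 22.5 in the knockdown, both above (log2 0.30 ± 0.23, edgeR adjusted p 1). Its changes with overexpression were -0.11 ± 0.19 in M27H4 and 0.02 ± 0.23 in 3T3-L1. Slc7a6, with a gap of 30.3 kb, was level in M6, at 51.3 and 48.8 CPM in controls and at 48.7 and 50.2 in the knockdown (log2 -0.02 ± 0.19, with a 95% interval within 1 log2 unit of 0).

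Farther out, Slc7a6os stood at 19.4 and 32.1 CPM in M6 controls and at 22.3 and 31.6 in the knockdown. Prmt7, an arginine methyltransferase, stood at 43.3 and 77.3 and at 51.4 and 93.7. For both, replicate 1 was lower than replicate 2 in both groups. Ddx28, a mitochondrial RNA helicase, showed the same, at 16.8 and 28.2 and at 20.6 and 28.6. The log2 changes of these 3 genes were 0.06 ± 0.25, 0.27 ± 0.34 and 0.13 ± 0.27, and with overexpression they lay between -0.13 and 0.19 in both lines.

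Dpep2 and Smpd3, a dipeptidase and neutral sphingomyelinase 2, were too low to place. Smpd3 stood at 0 and 0.211 CPM in M6 controls and at 0.338 and 0.23 in the knockdown, from 0 and 65 counts in the controls. Dpep2 lay between 0.0844 and 0.379 CPM in all replicates. Their intervals reached beyond 1 log2 unit in M6, in M27H4 and in 3T3-L1.

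**Figure D2:**
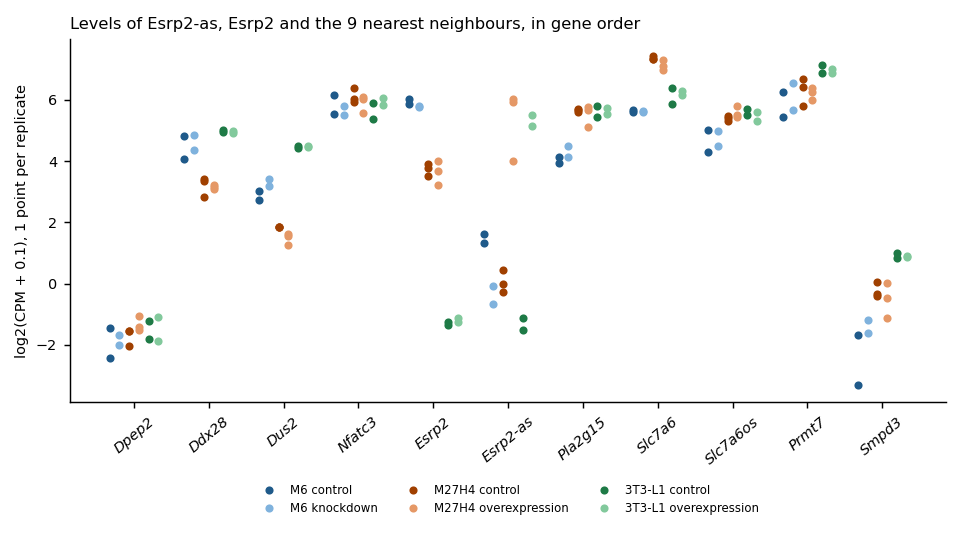
Level of Esrp2-as, Esrp2 and the 9 neighbours within 150 kb, in chromosome order, as log2(CPM + 0.1) with 1 point per replicate and a colour for each of 6 groups. Esrp2-as separates treated from control groups in every line, whereas the neighbours separate mainly by line.

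The remaining neighbours are given by role, from the M6 knockdown. Among genes of chromatin, transcription and the centromere, Ctcf changed by 0.04 ± 0.21, Thap11, a zinc finger transcription factor, by -0.17 ± 0.27, Zfp90, another zinc finger gene, by 0.16 ± 0.18, and Cenpt, a kinetochore protein gene, by 0.00 ± 0.19. Terf2, the telomere-binding shelterin subunit TRF2, stood at 29.4 and 21.5 CPM in controls and at 19.4 and 23.4 in the knockdown, a change of -0.25 ± 0.25. Each of these genes had overlapping replicates and an edgeR adjusted p of 1.

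Among genes of transport and membrane traffic, Atp6v0d1, a subunit of the proton pump V-ATPase, stood at 83 and 88.7 CPM in controls and at 63.8 and 79.4 in the knockdown. Both knockdown values were lower, by 0.26 ± 0.29 on the log2 scale, which did not pass (edgeR adjusted p 1). Vps4a, an ATPase that disassembles ESCRT-III, changed by 0.00 ± 0.21, Cog8, a subunit of the Golgi COG complex, by 0.02 ± 0.19, Nutf2, which carries Ran into the nucleus, by -0.10 ± 0.24 and Sntb2 by 0.13 ± 0.22. Cyb5b stood at 405 and 426 CPM in controls and at 497 and 547 in the knockdown. Both knockdown values were higher, and the change of 0.33 ± 0.18 had an edgeR adjusted p of 0.918.

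Genes of RNA and protein handling and of cell polarity showed small changes too. Edc4, a scaffold of mRNA decapping, changed by 0.10 ± 0.24, Nip7, a ribosome biogenesis factor, by 0.05 ± 0.30, and Psmb10 by -0.36 ± 0.28. Pard6a, a cell polarity scaffold, changed by -0.14 ± 0.34, and Ranbp10, Pskh1, Gfod2 and Enkd1 lay between -0.12 and 0.07. All of them had overlapping replicates and an edgeR adjusted p of 1. Nip7 stood at 50.5 and 95.5 CPM in controls and at 55 and 96.1 in the knockdown, so that replicate number separated its values and treatment did not.

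Distance from Esrp2-as did not order the changes in the same way in the 3 treatments. For overexpression in M27H4 and 3T3-L1 it is a description of position only, since the added RNA need not arise at the locus. In M6 the median log2 change was 0.13 for 15 neighbours within 250 kb, -0.09 for 12 between 250 and 500 kb and 0.01 for 10 beyond. In M27H4 the medians were -0.11, -0.09 and -0.07, and in 3T3-L1 they were 0.02, 0.08 and 0.06. The median size of change without its sign was larger nearer to Esrp2-as in M6, at 0.27, 0.13 and 0.10. The same held in M27H4, at 0.20, 0.09 and 0.08, but not in 3T3-L1, at 0.07, 0.08 and 0.09. Over all genes the median size was 0.25 in M6, 0.16 in M27H4 and 0.13 in 3T3-L1. In M6 and M27H4 the nearest range thus lay slightly above the size over all genes, and the farther ranges lay below it. Neither the ranges nor the set of all genes were matched for expression level. Of the low neighbours that were tested, Dpep2, Ctrl and Smpd3 lie in the nearest range and Agrp and Tsnaxip1 in the middle one. Spearman's rho between gap and signed change over 37 genes was -0.255, 0.0498 and 0.191, and between gap and size of change -0.279, -0.332 and 0.105. These are descriptions over genes that share libraries. Over the 32 neighbours of at least 1 CPM, rho between gap and size was -0.254, -0.309 and 0.0576.

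The other annotated genes of the same stretch gave the same count. Of 35 in the table, 22 were tested and 0 were called in each treatment by edgeR, DESeq2 or limma voom. At an unadjusted p under 0.05, edgeR gave 1 of them after knockdown and 0 with overexpression in either line. Over all genes the shares were 6.27% after knockdown, 1.69% in M27H4 and 0.946% in 3T3-L1. Cdh1, E-cadherin, with a gap of 464.8 kb, changed by -0.53 ± 0.33 after knockdown, -0.24 ± 0.27 in M27H4 and 0.17 ± 0.34 in 3T3-L1, each with an edgeR adjusted p of at least 0.963. Cdh3, P-cadherin, changed by 0.12 ± 0.54, 0.05 ± 0.47 and 0.47 ± 0.54.

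The neighbours differed between the control lines. These comparisons share control samples, so their counts are not independent. In M27H4 against M6, 15 of 37 passed in edgeR, against 30.2% of all genes; 12 were higher and 3 lower, against 15.2% and 15% of all genes. In 3T3-L1 against M6, 11 of 37 passed, against 39.4%; 10 were higher and 1 lower, against 20.5% and 18.9%. In 3T3-L1 against M27H4, 10 of 37 passed, against 36.6%; 5 were higher and 5 lower, against 18.9% and 17.8%. The share of neighbours called was thus above that of all genes in the first comparison and below it in the others, and nothing particular to the neighbours was tested. Esrp2 differed by -2.23 ± 0.21, -7.67 ± 0.32 and -5.44 ± 0.29 in these comparisons, and Cdh1 by -2.18 ± 0.30, -8.02 ± 0.45 and -5.83 ± 0.40. The Esrp2 differences that involve 3T3-L1 rest on a level under 1 CPM in that line. Without M6 control replicate 1 the 3T3-L1 against M6 count was 6, and without 3T3-L1 control replicate 1 it was 7; the 3T3-L1 against M27H4 count was 6 without either 3T3-L1 control.

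Slc12a4 was among the most different. It stood at 21.8 and 15.9 CPM in M6 controls, at 172, 193 and 191 in M27H4 controls and at 102 and 120 in 3T3-L1 controls. No lines overlapped. It was higher than in M6 by 3.30 ± 0.25 in M27H4 (edgeR adjusted p 5.08e-07) and by 2.56 ± 0.25 in 3T3-L1 (3.36e-06). Within run B, which holds a control column of each line, it was at 14.6 CPM of the column total in M6, 178.7 in M27H4 and 93.9 in 3T3-L1. Its difference of -0.74 ± 0.22 between 3T3-L1 and M27H4 (adjusted p 0.0173) was lost without 3T3-L1 control replicate 1 (0.149) or 2 (0.0574).

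Lcat, the plasma enzyme that esterifies cholesterol, stood at 0 and 0.0876 CPM in M6 controls, at 0.991, 1.84 and 1.51 in M27H4 and at 1.93 and 1.61 in 3T3-L1. Both other lines lay above M6, where the replicates held 0 and 27 counts. The fitted differences of 4.54 ± 0.71 and 4.83 ± 0.74 (edgeR adjusted p 0.000265 and 0.000168) depend on the prior count. Smpd3 was at 0.683, 0.66 and 0.946 CPM in M27H4 and at 1.71 and 1.91 in 3T3-L1, with fitted differences from M6 of 2.52 ± 0.71 and 3.76 ± 0.77 (0.0153 and 0.00154). The M27H4 call of Smpd3 was lost when only those groups were fitted (adjusted p 0.0794).

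Slc7a6 and Pla2g15, the nearest genes after Esrp2-as, were higher in M27H4 than in M6. Slc7a6 stood at 51.3 and 48.8 CPM in M6 and at 160, 174 and 161 in M27H4 (log2 1.72 ± 0.19, edgeR adjusted p 1.08e-05). Pla2g15 stood at 15.3 and 17.3 and at 48.9, 52.4 and 50.6 (log2 1.63 ± 0.22, 7.69e-05). In 3T3-L1, Pla2g15 was at 43.2 and 55.5 CPM, also above M6 (log2 1.60 ± 0.23, 0.000115), and Slc7a6 was at 83.6 and 58.3, below M27H4 (log2 -1.22 ± 0.18, 0.00015).

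Dus2 and Ddx28, which overlap on opposite strands, were both lowest in M27H4. Dus2 stood at 3.49, 3.53 and 3.51 CPM in M27H4, at 6.54 and 8.09 in M6 and at 22.7 and 21.5 in 3T3-L1. The differences were -1.06 ± 0.19 for M27H4 against M6 (edgeR adjusted p 0.000869) and 2.65 ± 0.20 for 3T3-L1 against M27H4 (3.7e-07). Ddx28 was at 6.97, 10.6 and 10.1 CPM in M27H4, 16.8 and 28.2 in M6 and 30.9 and 32.3 in 3T3-L1, differing by -1.29 ± 0.24 and 1.78 ± 0.24 (0.00108 and 7.34e-05). Pskh1, a protein serine kinase gene, was also lower in M27H4 than in both other lines (log2 -0.75 ± 0.16 against M6, 0.00342).

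Psmb10 and Ctrl were higher in 3T3-L1 than in both other lines. Psmb10 was at 25.8 and 48.3 CPM in M6, at 33.4, 39.5 and 39.7 in M27H4 and at 176 and 191 in 3T3-L1. It exceeded M6 by 2.30 ± 0.29 and M27H4 by 2.29 ± 0.25 (edgeR adjusted p 3.49e-05 and 1.31e-05). Ctrl, a chymotrypsin-like protease gene, was at 0.614 and 0.622 CPM in 3T3-L1 and at most 0.173 in the other controls. Its differences of 2.38 ± 0.84 and 2.35 ± 0.72 (0.0374 and 0.0201) lost their call when any of several replicates was left out, with adjusted p between 0.0522 and 0.15.

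Ctcf was lower in 3T3-L1 than in both other lines, and Sntb2 and Tango6 were lower than in M27H4. Ctcf was at 187 and 128 CPM in M6, at 122, 139 and 141 in M27H4 and at 80.7 and 83.6 in 3T3-L1, a difference from M6 of -0.94 ± 0.22 (edgeR adjusted p 0.00349; 0.0542 without M6 control replicate 1) and from M27H4 of -0.71 ± 0.20 (0.0134; 0.108 and 0.0969 without 3T3-L1 control replicate 1 or 2). Sntb2, a syntrophin, differed from M27H4 by -0.82 ± 0.20 and Tango6 by -0.72 ± 0.19 (0.00664 and 0.00945). The Sntb2 call was lost without 3T3-L1 control replicate 1 (0.0966) and the Tango6 call without 3T3-L1 control replicate 2 (0.102). All called neighbours kept their direction in the columns of runs B and C, which hold a control column of each line, taken singly. Both runs hold the same control replicate of each line. Those columns are part of the counts that gave the calls, so this is not a separate test.

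**Figure D3:**
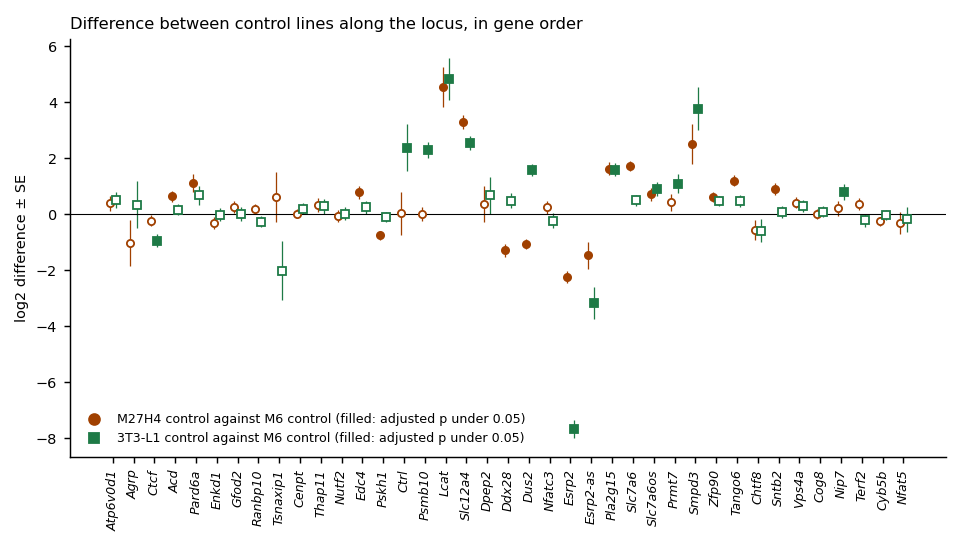
Difference from M6 controls (vertical axis, log2 ± SE) of M27H4 controls (circles) and 3T3-L1 controls (squares) for the 37 tested neighbours with Esrp2 and Esrp2-as, in chromosome order; filled symbols passed an edgeR adjusted p of 0.05. Esrp2 falls far below its neighbours, and Lcat, Slc12a4 and Smpd3 lie highest.

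Few neighbours followed Esrp2 across the 6 group means. Only 9 of 37 had a positive Pearson correlation of log2 CPM with it. Ctcf was the most alike at 0.993, over a range of 0.99 log2 units, followed by Tsnaxip1 at 0.675, which is low, and Chtf8 at 0.634. Outside the neighbours, Cdh1 reached 0.999 and Cdh3 0.0199. With 6 points from 3 lines these values describe an order of lines.

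Partners of the neighbours elsewhere in the genome were read as a reference. In the 9 lists of complexes and families to which neighbours belong, 0 of 46 partners passed in any treatment by edgeR, DESeq2 or limma voom. Over all genes, edgeR called 0.137% after M6 knockdown, 0.00942% in M27H4 and 0.00471% in 3T3-L1. At an unadjusted p under 0.05, edgeR gave 4, 0 and 1 partners, against 6.27%, 1.69% and 0.946% of all genes. Between lines, 4 of 5 partners of Ctcf on the cohesin list were lower in 3T3-L1 than in M6, among them Rad21 by -1.44 ± 0.24 and Smc1a by -1.27 ± 0.19 (edgeR adjusted p 0.000325 and 0.000118), and 4 of 5 were lower than in M27H4; over all genes 18.9% and 17.8% were lower. Of 4 immunoproteasome partners of Psmb10, 2 were higher in M27H4 than in M6, Psmb9 by 1.28 ± 0.29 and Psmb8 by 0.63 ± 0.21 (0.00398 and 0.0345). In 3T3-L1, 1 was higher than in M6, Psmb9 by 1.35 ± 0.31 (0.00341), and 2 were higher than in M27H4, Psme1 by 1.11 ± 0.21 and Psme2 by 0.99 ± 0.22 (0.00109 and 0.00367). Of 5 shelterin partners of Acd and Terf2, 1 was higher in M27H4 than in M6, 1 was lower in 3T3-L1 than in M6 and 1 lower than in M27H4. Of 11 V-ATPase partners, 2 were higher and 1 lower in M27H4 than in M6, 1 was higher and 2 lower in 3T3-L1 than in M6, and 3 were lower in 3T3-L1 than in M27H4. Of 7 COG complex partners, 1 was lower in M27H4 than in M6, 1 was higher and 2 lower in 3T3-L1 than in M6, and 1 was higher in 3T3-L1 than in M27H4. Of 6 mRNA decapping partners, 2 were lower in M27H4 than in M6, 1 was higher and 1 lower in 3T3-L1 than in M6, and 2 were higher and 1 lower in 3T3-L1 than in M27H4. Of 2 CTF18 partners, 1 was higher in M27H4 than in M6 and both were lower in 3T3-L1 than in M27H4. Of 3 CENP-T complex partners, 1 was lower in M27H4 and 1 in 3T3-L1 than in M6. Of 3 NFAT partners, 1 was lower in M27H4 than in M6, and 1 was higher and 1 lower in 3T3-L1 than in M27H4. Over all genes, 15.2% were higher and 15% lower in M27H4 than in M6. The shares were 20.5% and 18.9% in 3T3-L1 against M6, and 18.9% and 17.8% in 3T3-L1 against M27H4. The lists are small, and nothing particular to them was tested.

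Chtf8, which encodes a subunit of the CTF18 clamp loader for DNA replication, was not measured steadily. For 5 replicates, 2 columns of different run codes share the number after AS in their names. The labels call them technical replicates, and they are taken here as the same library, which the labels do not state. In 4 of these 5 pairs Chtf8 differed over 2-fold between runs. In M27H4 control replicate 2 it was at 208.8 CPM of the column total in run B and at 65.6 in run C. In 3T3-L1 overexpression replicate 1 the values were 188.4 and 68.4. Over all 21 columns 7 lay between 52.1 and 110.1 and 14 between 146.2 and 288.7, with none between. A single annotated transcript carried 78.2% to 96.7% of the Chtf8 transcript counts in a column. It ran from 27.3 to 246.3 CPM of the column total, whereas the other Chtf8 transcripts together ran from 3.8 to 22.7. Across the other neighbours of at least 1 CPM the largest difference between runs was 1.61-fold, in Lcat. Over all genes of that level, 4.66% differed over 2-fold in at least 1 of the 5 pairs, and the share in 4 pairs was not counted. Chtf8 overlaps Has3 on the opposite strand and has a second identifier with the same symbol, and the cause of the spread was not tested.

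**Figure D4:**
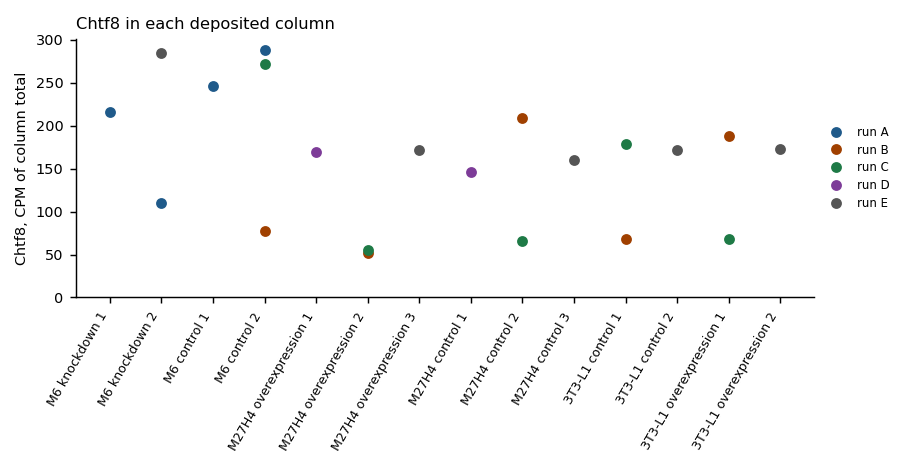
Chtf8 in each of the 21 deposited columns (vertical axis, CPM of the column total, from 0), placed by replicate and coloured by run, A to E. Points of 1 replicate differ by run, for example 208.8 and 65.6 in M27H4 control replicate 2.

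In M6 some neighbours differed more by replicate number than by treatment. Nfat5, a tonicity-responsive transcription factor with the longest exons of the group, stood at 99.5 and 44.6 CPM in M6 controls and at 90 and 41.1 in the knockdown. Both replicates 1 were above both replicates 2. Over 32 neighbours replicate 1 differed from replicate 2 by -0.87 to 1.14 log2 units, and 9 differed by over 0.5. Spearman's rho between that difference and exon length was 0.477 over the neighbours and 0.521 over 13466 genes. In M27H4 it was 0.411 over the neighbours and 0.0551 over all genes, and in 3T3-L1 it was 0.125 and 0.118. The cause was not tested.

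**Figure D5:**
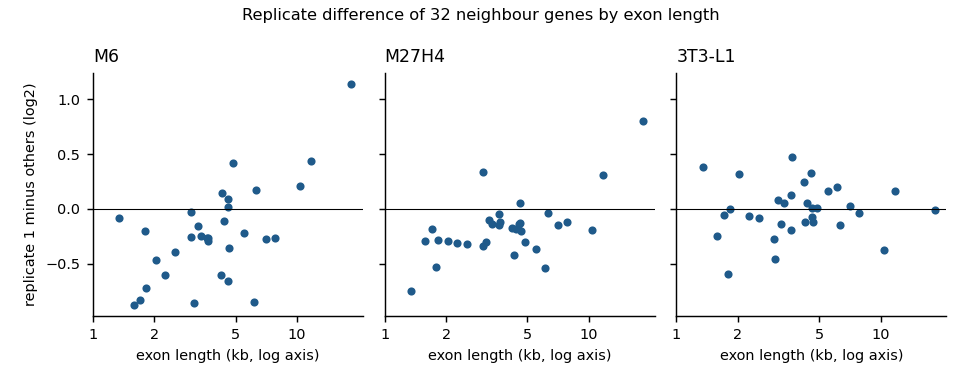
Difference of replicate 1 from the other replicates (vertical axis, log2, control and treated together) against exon length in kb (log axis) for 32 neighbours in 3 lines. In M6 the longest gene, Nfat5, lies at 1.14, above all others.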

How the data were processed

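RNA was sequenced from 14 replicates of 3 cell lines, deposited as 21 columns. Per the labels' protocols, ribosomal RNA was depleted and a strand-specific kit was used; the submitters' processing notes name cutadapt, HISAT2, StringTie and edgeR, and the builds mm10 and GRCm38. The deposited gene and transcript tables hold expected counts in whole numbers, estimated by the authors; the counting strand and annotation release are not given in the sources used here. The deposited CPM values were not used; of their columns, 2 matched no sample.

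Technical replicates, as named in the labels, were added up. Identifiers were matched to GENCODE M21 on GRCm38 (48058 of 48440 genes; the rest held 0.0515% of counts). Of 21237 genes kept by filterByExpr, changes were fitted in edgeR 4.0.16 (R 4.3.3; TMM, robust quasi-likelihood, 6 groups, 8 residual degrees of freedom, biological coefficient of variation 0.323) and adjusted by Benjamini-Hochberg over all genes; an adjusted p under 0.05 was a call. SE comes from the F statistic and intervals are 95%. CPM uses effective library sizes. DESeq2 1.42.0, limma 3.58.1 voom and other settings were alternatives. The fit was tested on simulated data. Intervals reflect the spread between replicates; a floor set by a count of 0 covers counting error only.

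Same-numbered control and treated replicates deviated together: the correlations of their deviations were 0.334 in M6, 0.353, 0.249 and 0.24 in M27H4 and 0.245 in 3T3-L1. They were therefore taken as pairs in an alternative with a replicate block. The number after LR in a column name is called a run code, lettered A to E in numeric order. Columns that share the number after AS are taken as the same library. The meaning of neither number is given in the sources used here.

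The genes and the lists of partners and markers were chosen with earlier results of these data known. The summed result of the immune marker list is not reported here. Named by rule were Esrp2, Esrp2-as, every neighbour within 150 kb, the 3 neighbours with the smallest p per treatment, the 5 largest called changes each way per line comparison and the 3 most like Esrp2; other neighbours are given by role, and Chtf8 and Nfat5 were singled out after their values were seen. Promoter windows are RefSeq entries on GRCm38.p6.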

Additional observations from a re-analysis of the deposited data

How the results depend on the processing

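A missing call with 2 or 3 replicates a group does not show that a neighbour was unchanged. Of 383 alternative values of named neighbours in treatments, 31 changed sign, all of them uncalled, and 1, of Slc12a4, became a call; of 258 line values 16 lost their call and none reversed. The count of neighbours called after M6 knockdown went from 0 to 1 with technical replicates as separate libraries, and stayed at 0 in the other alternatives. For 3T3-L1 against M6 the count was 6 to 13 with a replicate left out. For 3T3-L1 against M27H4 it was 6 to 10 with a replicate left out and 18 with technical replicates as libraries. Over all genes, calls after M6 knockdown ran from 0 to 559 between alternatives, against 29, those of overexpression from 0 to 6 in M27H4 and 0 to 12 in 3T3-L1. The replicate block, which leaves 4 residual degrees of freedom, raised the M6 knockdown calls over all genes to 293 and changed no call of a neighbour; it ended the overexpression calls of Esrp2-as, whose adjusted p under the block was 0.0794 in M27H4 and 0.0824 in 3T3-L1. Where a left-out replicate leaves 1 sample in a group, that sample is assumed to vary like the other groups. The causes were not tested.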
